A study of Mus musculus with 55 samples.

Results

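The secretory cells that line the mouse airway were followed through 9 genes: Scgb1a1, Scgb3a2, Cyp2f2, Aldh1a7, Scgb3a1, Muc5b, Bpifb1, Bpifa1 and Reg3g. The genes were chosen by name, with earlier results of these data known. Every probe set annotated with only 1 of these symbols was taken, which gave 10 probe sets of 45037. Bpifb1 had 2 probe sets and each other gene had 1. Lung RNA of male C57BL/6 mice was hybridized to Affymetrix Mouse Genome 430 2.0 arrays, 1 array per mouse. The mice were 6 weeks old when they entered the study and had 2 weeks on their diet before any treatment. On the AIN-76A diet, 5 mice had 10 ppb arsenic (As, as sodium arsenite) in food, 4 had 10 ppb and 4 had 100 ppb in drinking water, and 5 were controls with no added As. On the LRD-5001 diet (LRD), 5 mice had 10 ppb in food, 5 had 10 ppb and 3 had 100 ppb in water, and 4 were controls. These exposures lasted 5 weeks. A further 20 mice on the AIN-76A diet had 1 intraperitoneal injection 8 hours before the lungs were taken: 1 mg/kg dexamethasone with 1 mg/kg sodium arsenite, dexamethasone alone, arsenite alone, or saline, 5 mice each. Dexamethasone is a synthetic glucocorticoid. The 3 arrays of AIN-76A 100 ppb water replicate B, LRD 10 ppb water replicate C and arsenite injection replicate E were left out, and 52 of 55 mice remained.

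Values are log2 expression values, so a difference of 1 is a doubling. They were made by the authors with robust multiarray averaging (RMA), and no call of presence or absence comes with them, so a low value cannot be told from background. The medians of the 52 arrays lay between 4.2 and 4.4 and their SDs between 2.29 and 2.42. The SDs of the 3 arrays left out were 1.89, 2.23 and 1.17, in the order named. On the array of arsenite injection replicate E, Scgb1a1 read 8.91 and Cyp2f2 3.62, against at least 14.05 and 13.03 in each of the 52 mice. The arrays fall into 5 batches of 11 by the prefix of the raw file name, and each batch mixes several groups. In a whole lung, fewer cells of a type and less RNA per cell cannot be told apart.

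The airway epithelium is kept clean by secretory cells, which release proteins and mucus, and by ciliated cells, which move that layer upward. In the mouse, club cells are the main secretory cells of the bronchioles. They release secretoglobins and carry the enzymes that oxidize inhaled chemicals, which is also why chemicals such as naphthalene injure them. In the larger airways and their glands, secretory cells make gel-forming mucins, antimicrobial lectins and proteins of the BPI fold family, which coat the surface and act on bacteria.

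Promoter sequence was shown for the genes that moved together, since a shared element would be looked for there. The RefSeq table (GRCm38.p6) held 6 of the 9 genes, and Scgb1a1, Scgb3a2 and Muc5b had no entry. The 250 bases before the annotated start were searched for 9 short motifs on both strands. Among them was CTCAAG, the core bound by NKX2-1, the transcription factor of the lung epithelium. Capitals mark a match to CTCAAG or to its reverse complement CTTGAG. Bpifa1 lies at chr2:154142630-154142879 (plus strand), Bpifb1 at chr2:154190568-154190817 (plus strand, the first of its 2 listed starts), Reg3g at chr6:78468875-78469124 (minus strand) and Scgb3a1 at chr11:49663345-49663594 (plus strand).
Bpifa1: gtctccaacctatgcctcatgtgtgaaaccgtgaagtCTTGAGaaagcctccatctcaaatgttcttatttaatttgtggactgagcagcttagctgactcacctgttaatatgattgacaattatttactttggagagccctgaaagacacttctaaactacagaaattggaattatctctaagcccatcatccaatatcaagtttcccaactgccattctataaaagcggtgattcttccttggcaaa
Bpifb1: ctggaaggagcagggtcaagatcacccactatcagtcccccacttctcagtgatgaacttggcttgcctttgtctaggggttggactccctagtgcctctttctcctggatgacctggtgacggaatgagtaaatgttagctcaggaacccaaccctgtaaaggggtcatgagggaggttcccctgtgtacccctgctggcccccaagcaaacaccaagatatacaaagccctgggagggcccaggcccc
Reg3g: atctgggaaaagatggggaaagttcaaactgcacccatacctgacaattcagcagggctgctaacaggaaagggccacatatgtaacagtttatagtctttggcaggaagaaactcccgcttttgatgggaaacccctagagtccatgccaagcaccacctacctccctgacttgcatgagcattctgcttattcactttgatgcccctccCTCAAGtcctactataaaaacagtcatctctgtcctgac
Scgb3a1: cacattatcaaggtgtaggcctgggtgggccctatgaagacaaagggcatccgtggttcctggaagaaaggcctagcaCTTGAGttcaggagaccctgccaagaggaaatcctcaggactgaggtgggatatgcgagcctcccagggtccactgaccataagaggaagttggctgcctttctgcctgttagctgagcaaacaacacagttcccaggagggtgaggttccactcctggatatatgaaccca

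CTCAAG stood in the windows of Bpifa1, Reg3g and Scgb3a1, and not in those of Bpifb1 (either start), Cyp2f2 or Aldh1a7. It stood in 13.3% of the 32841 promoter windows of the table. AGGAAG, the core bound by ETS factors, stood in the windows of Bpifa1, Reg3g, Scgb3a1, Cyp2f2 and the second start of Bpifb1, against 29.5% of all windows. The TATA letters TATAAA stood in the windows of Bpifa1, Reg3g and Aldh1a7, against 12.4%. AGAACA, a half-site of the glucocorticoid receptor, stood in the window of Bpifa1, against 16.1%. TGTTT, the core bound by FOXA factors, stood in the windows of Reg3g, Scgb3a1 and the first start of Bpifb1, against 46.4%. The longer TGTTTAC stood in none of the 6 genes, against 3.2%. ACAAAG (SOX factors) stood in those of Scgb3a1 and the first start of Bpifb1, against 16.5%. TTCNNNGAA (STAT factors, N any base) stood in those of Scgb3a1 and the second start of Bpifb1, against 7.0%. TGANTCA (AP-1) stood in that of Bpifa1, against 6.8%. A match here is only a match of letters.

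The 9 genes differed most in how far mice of 1 group lay apart. Bpifa1, a secreted BPI fold protein that acts on bacteria and on the airway surface liquid, read 3.89 in the lowest mouse and 13.87 in the highest, with a median of 11.62. The lowest value lies under the array medians and cannot be told from background, and the next lowest mouse read 7.50, an 82.6-fold range. Reg3g, a C-type lectin that kills Gram-positive bacteria and is best known from the gut, read 3.75 to 11.66 with a median of 8.44. Bpifb1, a second secreted BPI fold protein, read 3.72 to 11.33 with a median of 8.90. Scgb3a1, a secretoglobin of the larger airways, read 7.00 to 13.54 with a median of 11.96. Muc5b, a gel-forming mucin on which clearance of the airway depends, read 5.18 to 9.14 with a median of 7.26. The lowest value of all 5 genes came from 1 mouse, AIN-76A control replicate E. Without it the range was 26.0-fold for Scgb3a1 (from 8.83), 10.2-fold for Muc5b (from 5.80), 61.9-fold for Bpifb1 (from 5.38) and 123-fold for Reg3g (from 4.72).

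The other 4 genes stayed nearly level. Scgb1a1, the secretoglobin that defines the club cell, read 14.05 to 14.30 with a median of 14.17. Scgb3a2, another club cell secretoglobin, read 12.95 to 13.70 with a median of 13.31. Cyp2f2, the P450 enzyme that activates naphthalene, read 13.03 to 13.69 with a median of 13.59. Aldh1a7, a cytosolic aldehyde dehydrogenase, read 10.42 to 11.21 with a median of 10.94. Its sequence is close to that of Aldh1a1, so its signal may include that gene.

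The SD between mice of a group puts these ranges beside those of the other probe sets. It was 2.03 for Reg3g, 2.00 for Bpifa1, 1.80 for the brighter probe set of Bpifb1, 1.72 for the other, 1.31 for Scgb3a1 and 0.82 for Muc5b. Over all 45037 probe sets the median was 0.21 and the 99th percentile 0.73. Counted from the most variable, Reg3g was number 4, Bpifa1 number 5, the Bpifb1 probe sets numbers 14 and 18, Scgb3a1 number 63 and Muc5b number 320. Without AIN-76A control replicate E, left out after its values were seen, Reg3g was number 4, Bpifa1 number 15 (SD 1.73), the Bpifb1 probe sets numbers 18 and 25, Scgb3a1 number 106 and Muc5b number 372. Scgb1a1, with an SD of 0.06, was number 11 counted from the least variable. The SD was 0.11 for Cyp2f2, 0.15 for Aldh1a7 and 0.16 for Scgb3a2. Bright probe sets vary little on these arrays: the 70 with a mean above 13 had a median SD of 0.11. Scgb1a1 was between rank 2 and rank 5 among the probe sets of every array, where the brightest value was 14.29 to 14.55, and a signal near the top of an array has little room to rise.

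**Figure D1:**
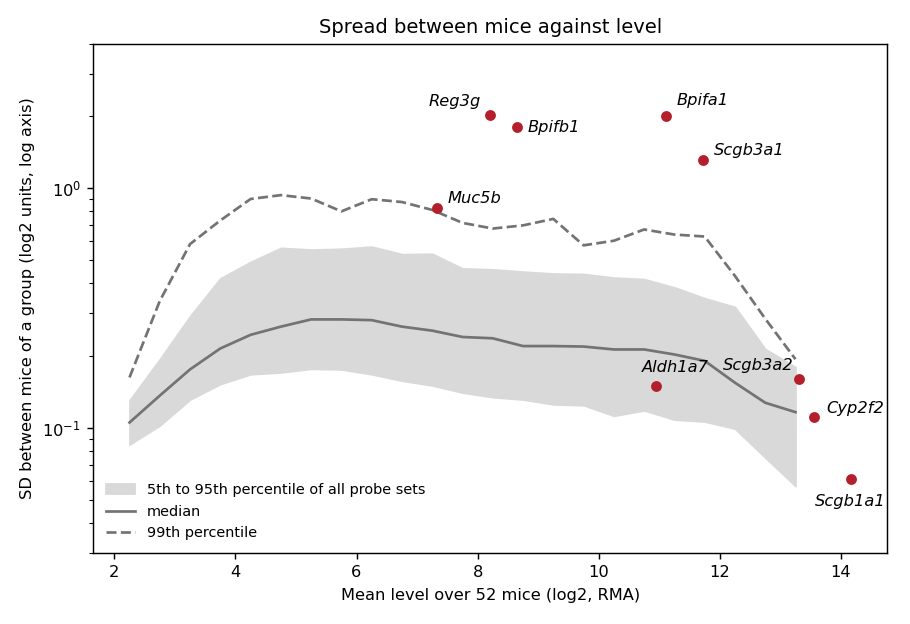
Spread against level. The x axis is the mean log2 level over 52 mice and the y axis, on a log scale, the SD between mice of a group; each point is a gene by its brightest probe set, the grey band spans the 5th to 95th percentile of all probe sets in steps of 0.5 log2 units, the solid line is their median, the dashed line their 99th percentile, and they end where a step holds few probe sets. Reg3g (2.03), Bpifa1 (2.00), Bpifb1 (1.80) and Scgb3a1 (1.31) lie far above the dashed line, Muc5b (0.82) lies at it, and Scgb1a1 (0.06) lies lowest.

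Differences between the 12 groups held 17.3% of the variance of Bpifa1, 17.7% of that of Reg3g and of Scgb3a1, 19.8% of that of Bpifb1 and 21.8% of that of Muc5b. The rest lay between mice of the same group. With 12 groups and 52 mice, a gene without any group difference has a share of 21.6% on average, and 21.6% was also the median of all probe sets. The share was 20.8% for Scgb1a1, 19.2% for Scgb3a2, 26.9% for Cyp2f2 and 37.8% for Aldh1a7, but here the group means themselves spanned only 0.11, 0.24, 0.21 and 0.37 log2 units.

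**Figure D2:**
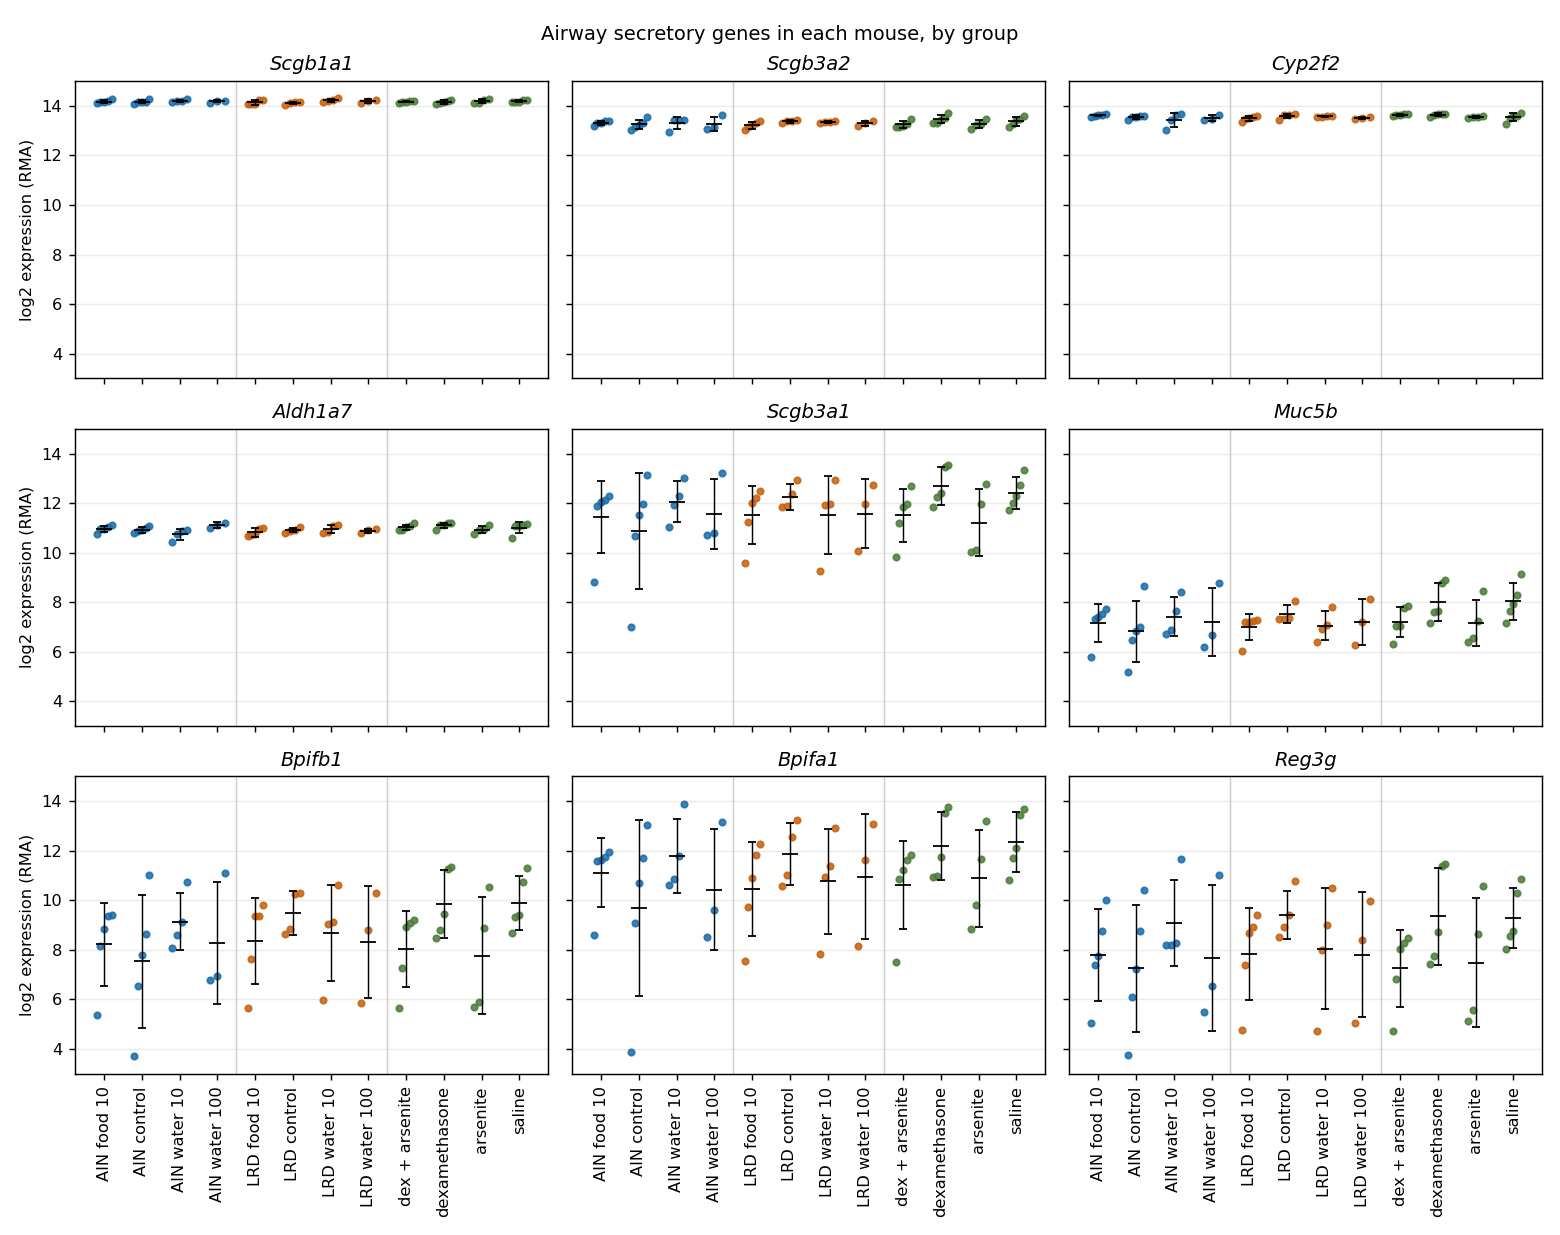
The 9 genes in each mouse. Each panel is a gene, the x axis gives the 12 groups (blue AIN-76A, orange LRD, green injected; numbers are ppb As in food or water), the y axis is the log2 expression value, points are mice, and the black marks are the group mean and SD. Scgb1a1, Scgb3a2, Cyp2f2 and Aldh1a7 form nearly flat lines, while Bpifa1 runs from 3.89 to 13.87 and AIN-76A control replicate E is the lowest point in Scgb3a1, Muc5b, Bpifb1, Bpifa1 and Reg3g.

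Single mice were low in several of these genes at once. AIN-76A control replicate E had the lowest value of all 52 mice in Bpifa1 (3.89), Bpifb1 (3.72), Reg3g (3.75), Scgb3a1 (7.00) and Muc5b (5.18). The same mouse read 14.07 for Scgb1a1, 13.03 for Scgb3a2 and 13.42 for Cyp2f2, which were low among the 52 mice but close to the medians of 14.17, 13.31 and 13.59. The next lowest in Bpifa1 were replicate F of the mice given dexamethasone and arsenite (7.50), LRD 10 ppb food replicate C (7.57), LRD 10 ppb water replicate A (7.84), LRD 100 ppb water replicate C (8.16), AIN-76A 100 ppb water replicate D (8.52), AIN-76A 10 ppb food replicate F (8.62) and arsenite injection replicate F (8.83). In each of these 7 mice Scgb3a1, Muc5b, Bpifb1 and Reg3g were also among the 11 lowest values. The low mice came from 8 groups and from all 5 batches. These 7 mice had all received As, as had the mice of most of the 12 groups. AIN-76A control replicate E had not, nor had the next lowest mouse after the 7, AIN-76A control replicate F (9.09). Batch 2 lay lowest: after the group means were subtracted, its 11 mice averaged -1.04 for Bpifa1 and -0.995 for Reg3g, against -0.24 to 0.56 for Bpifa1 in the other 4 batches. This batch holds AIN-76A control replicate E, which weighs on these means. Without the subtraction its median of Bpifa1 was 10.6, against 11.4 to 11.7 in the other 4.

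The rule asked for club cell genes and upper airway genes to be told apart by their correlation over mice. This was done in the 33 mice without injection, after the group means were subtracted, so these correlations chose the sets and are given as a description. Scgb3a1, Muc5b, Bpifb1, Bpifa1 and Reg3g formed 1 set, in which Pearson's r was 0.89 to 0.97 over the 10 pairs. Scgb3a2, Cyp2f2 and Aldh1a7 formed another, with r of 0.63 for Scgb3a2 and Aldh1a7, 0.66 for Cyp2f2 and Aldh1a7 and 0.72 for Scgb3a2 and Cyp2f2. Scgb1a1 stood alone, with r of 0.14 to 0.34 to the other 8 genes, and -0.03 to 0.19 with batch means subtracted. Its SD of 0.06, near the top of the arrays, limits what r can show. These 3 sets are those of average linkage cut into 3, a number chosen after the values were seen. Cut into 2, as first written down, average linkage put Scgb1a1 alone against the other 8, while complete linkage cut into 2 gave the 5 upper airway genes against the other 4.

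Scgb3a2 lay between the sets. Its r to the 5 upper airway genes was 0.67 to 0.78, close to its r of 0.72 to Cyp2f2. With ranks (Spearman) in place of values and average linkage, or with batch means subtracted and complete linkage, it joined the upper airway set. Cyp2f2 had r of 0.28 to 0.39 to the 5 genes and Aldh1a7 0.18 to 0.32. Without AIN-76A control replicate E, r within the 5 genes was 0.87 to 0.97. The 2 Bpifb1 probe sets, which measure 1 gene, had r of 0.98 over 52 mice.

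The 19 injected mice were not used to form the sets, and there the 5 upper airway genes also correlated with each other. Clustered in the same way, however, these mice put Scgb3a2 with the 5 genes (6 genes at 3 clusters, average or complete linkage) and, with Spearman's rho, Cyp2f2 as well (7 genes). The set was the 5 genes alone only with batch means subtracted. Over their 10 pairs r was 0.87 to 0.98 and Spearman's rho 0.86 to 0.96 (two-sided permutation within groups, adjusted p over 36 pairs at most 0.000432 for r and 0.000864 for rho). For Bpifa1 and Scgb3a1, r was 0.94 and rho 0.92 (permutation p = 1e-05, the smallest that 100000 resamples can give, adjusted p = 9e-05, n = 19). Without the 2 mice farthest from the median of Scgb3a1, r was 0.90. Scgb3a2 correlated with each of the 5 genes (r 0.68 to 0.80, adjusted permutation p 0.00072 to 0.00882), and with Cyp2f2 (r = 0.65, rho = 0.66, permutation p = 0.00387, adjusted p = 0.00882). Without the 2 farthest mice the adjusted permutation p was 0.0524 with Bpifa1, 0.0514 with Reg3g and 0.0564 with Cyp2f2. Cyp2f2 correlated with Scgb3a1, Muc5b and Bpifb1 (r 0.41 to 0.57). Without the 2 farthest mice these 3 pairs had r of 0.46 to 0.54 and an adjusted permutation p of 0.0514 to 0.0674, and with batch means subtracted they did not pass either (adjusted permutation p 0.0543 to 0.118). With Spearman's rho Cyp2f2 passed with each of the 5 upper airway genes (rho 0.52 to 0.65, adjusted permutation p 0.0133 to 0.0359). None of the 8 pairs of Scgb1a1 passed (r -0.09 to 0.27). In all, 19 of the 36 pairs passed the threshold of 0.05, 21 with Spearman's rho and 14 without the 2 farthest mice. Those 2 mice lay farthest from the median of 1 gene of the pair, the one named first in the opening list. A mouse far out only in the other gene stayed in. With batch means subtracted as well 18 passed. There the 3 pairs of Cyp2f2 were lost and those of Aldh1a7 with Scgb3a2 and with Cyp2f2 were gained.

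**Figure D3:**
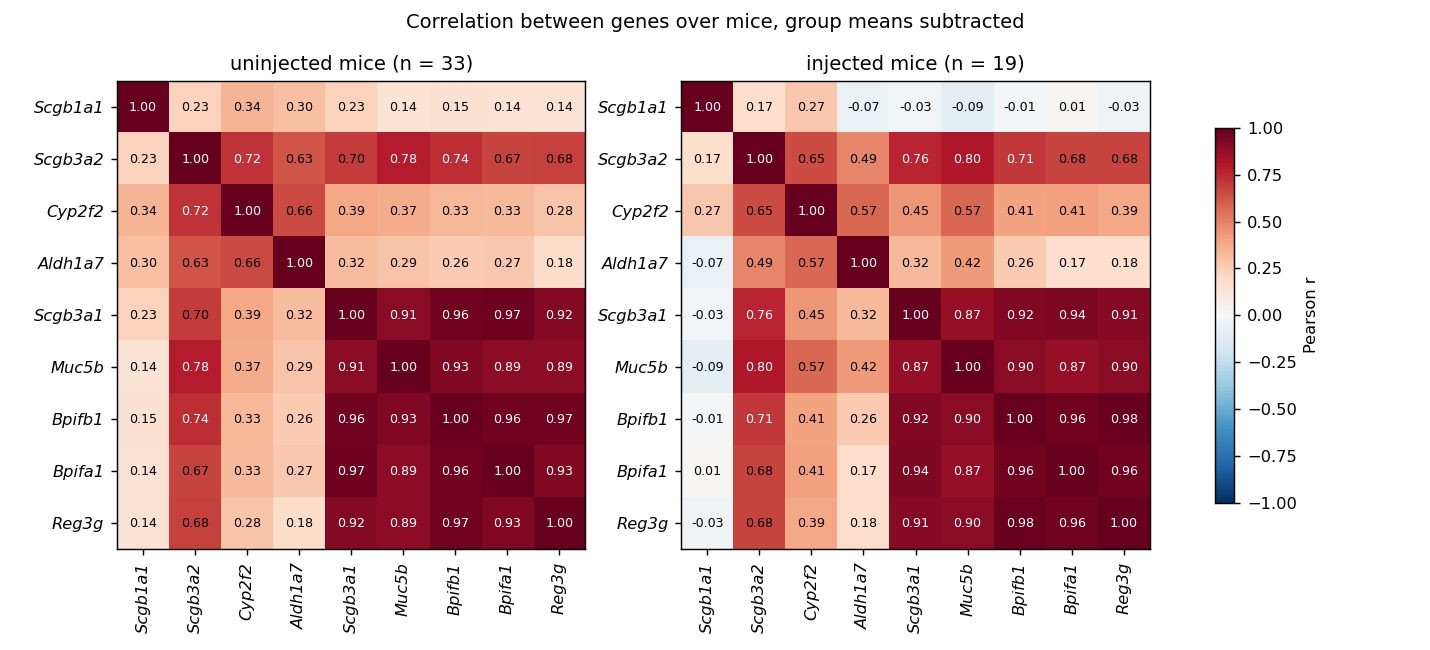
Correlation between genes over mice. Each cell gives Pearson's r between 2 genes after group means were subtracted, in 33 mice without injection (left) and 19 injected mice (right); red is positive and blue negative. Scgb3a1, Muc5b, Bpifb1, Bpifa1 and Reg3g form a block of r from 0.87 to 0.98 in both panels, and Scgb1a1 has no r above 0.34 in either.

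Marker lists of other cells were set beside each gene over the 52 mice, as the mean of the list after group means were subtracted. Of 189 correlations of 9 genes with 21 lists, 90 passed an adjusted permutation p of 0.05, and 89 with batch means subtracted as well. Without the 2 mice farthest from the median of the gene, 79 passed. The list of other upper airway, mucous and gland genes (16 of 17 measured, 7 with a mean above 5) had r of 0.80 to 0.93 to the 5 upper airway genes (adjusted permutation p = 9e-05 each). The members of this list differed: their r to Bpifa1 ran from -0.37 to 0.83 with a median of 0.28, and was above 0.5 in 5 of 16. Of the 7 with a mean above 5, the highest were Tff2, a trefoil peptide of mucus (0.83), Lypd2 (0.80) and the antimicrobial lactoferrin gene Ltf (0.73). The other 4 were Fcgbp (0.43), the membrane mucin gene Muc1 (0.21), Bpifb5 (0.07) and the lysozyme gene Lyz1 (-0.37). Muc5ac, the other main gel-forming mucin of the airway, had a mean of 4.17 and r of 0.45.

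The means of the marker lists of heart muscle, smooth muscle, ciliated cells, basal cells and cartilage moved with the 5 upper airway genes. These lists do not show from which part of the lung the RNA came. Heart muscle genes, which the mouse lung expresses in the muscle sleeve of its pulmonary veins, had r of 0.68 to 0.79 to the 5 upper airway genes (5 of 5 markers measured, adjusted permutation p = 9e-05). For Bpifa1 this r was 0.74, and 0.83 without the 2 farthest mice. Airway smooth muscle genes (6 of 6) had r of 0.60 to 0.76, and ciliated cell genes (16 of 17) 0.58 to 0.73. Basal cell genes had r of 0.38 to 0.55 and cartilage genes 0.34 to 0.51. All measured genes of these 2 lists except Dapl1 (5.59) had means below 5, so their values lie near background. Their members differed: r to Bpifa1 ran from -0.10 (Krt14) to 0.66 (Aqp3) for basal cell genes. For cartilage genes it ran from 0.00 to 0.43. Macrophage genes ran the other way, with r of -0.44 to -0.35. The 3 measured thyroid genes had means below 5 and r of -0.04 to 0.07 to the 5 genes. The part of these lists in the results on the 5 genes was not tested.

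The other 4 genes went with other lists. Scgb3a2 followed the ciliated cell genes most closely (r = 0.83, and 0.81 without the 2 farthest mice, adjusted permutation p = 9e-05). Cyp2f2 followed the other club cell genes (13 of 13 measured, r = 0.78, adjusted permutation p = 0.0012, and r = 0.52 without the 2 farthest mice). Their members had r of 0.13 (Pon1) to 0.78 (Cbr2, a carbonyl reductase) with a median of 0.50. This median was not particular to club cell genes. It was 0.51 for airway smooth muscle, 0.50 for endothelial, 0.48 for alveolar type II and 0.46 for alveolar type I genes. The r of Cyp2f2 to thymus genes, -0.76, did not pass (adjusted permutation p = 0.0618) and was 0.05 without the 2 farthest mice. Aldh1a7 had r of 0.55 to the other club cell genes, a list that holds Aldh1a1, and 0.59 to ciliated cell genes, and without the 2 farthest mice these were 0.28 and 0.41. Scgb1a1 passed with 1 list, that of airway transcription factors (r = 0.34, adjusted permutation p = 0.0424), and had r of 0.145 to the other club cell genes.

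**Figure D4:**
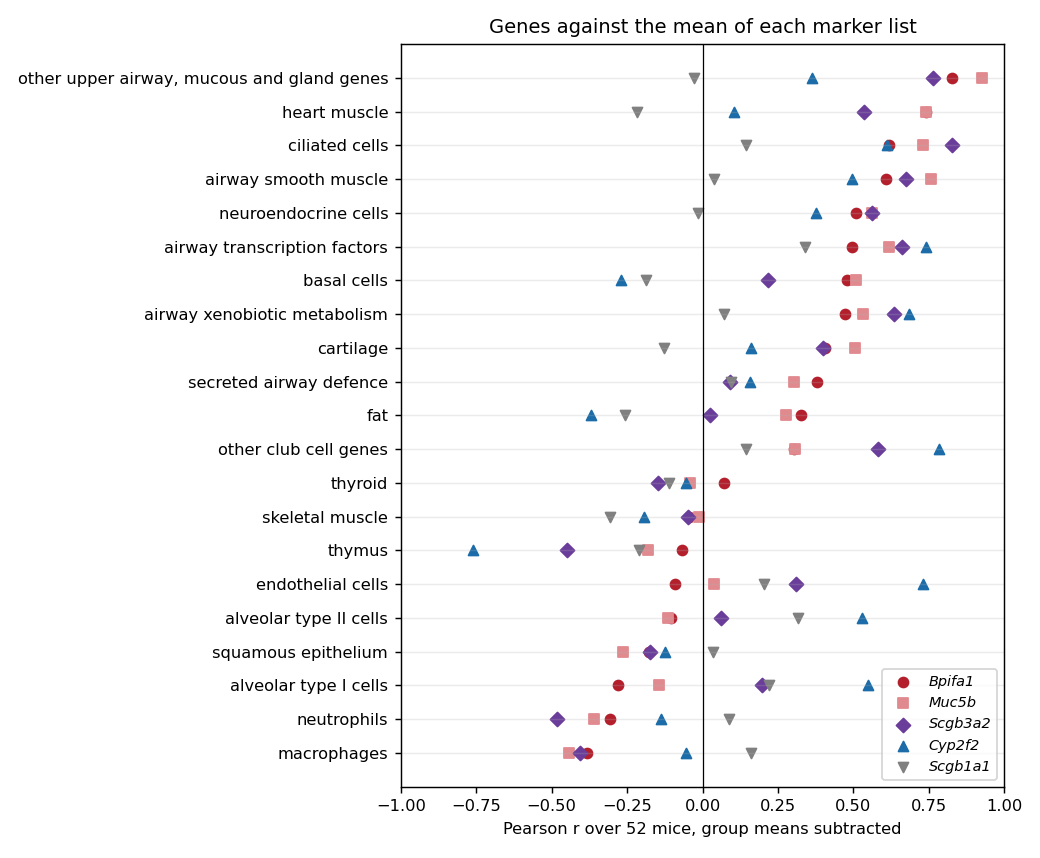
Genes against marker lists. The x axis is Pearson's r over 52 mice between a gene and the mean of a marker list, after group means were subtracted, and each row is a list; symbols are Bpifa1, Muc5b, Scgb3a2, Cyp2f2 and Scgb1a1. Bpifa1 and Muc5b lie furthest right for other upper airway and for heart muscle genes, Scgb3a2 for ciliated cell genes (0.83), Cyp2f2 for other club cell genes (0.78), and Scgb1a1 stays between -0.31 and 0.34.

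Among 11199 genes with a mean above 5, the nearest to each gene was found by r over the 52 mice, as a description with no test. Lypd2 was nearest to Muc5b (0.94). Tff2 was nearest to Bpifb1 (0.91), Reg3g (0.90) and Scgb3a1 (0.86), and had r of 0.83 to Bpifa1. AU040972 was nearest to Bpifa1 (0.85) and second for Muc5b (0.92), Bpifb1 (0.89), Reg3g (0.86) and Scgb3a1 (0.85). Calml3, a calmodulin-like protein of epithelium, had r of 0.83 to Bpifa1 and 0.84 to Reg3g. Lypd2 was also nearest to Scgb3a2 (0.85), followed by Spa17 (0.85) and Rsph9, a radial spoke protein of cilia (0.85). The glutathione transferase Gstm2 was nearest to Cyp2f2 (0.85), and Lpar3 to Aldh1a7 (0.78). For Scgb1a1 the highest r was 0.65, with Limk1.

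The comparisons asked what arsenic, diet and dexamethasone did to these genes. In all 16 comparisons, tested with limma (1 fit of the 12 group means, adjusted over 45037 probe sets, threshold 0.05), 0 of the 10 probe sets passed. At an unadjusted p under 0.05 there were 4 in saline injection over AIN-76A control, 1 in dexamethasone and arsenite over dexamethasone, and 0 in the other 14. Over all probe sets that share was 4.09% and 2.44% in these 2 comparisons and 2.04% to 13.8% in the others. The lowest adjusted p was 0.414, for Aldh1a7 at 10 ppb in water on AIN-76A. The rank product, the method of the study, was run beside it: it ranks each probe set within every difference between an exposed and a control mouse, does not read the spread between mice, and estimates the share of false positives. The study's methods give a p-value as its threshold, whereas here the estimated share of false positives was used. It called 1 to 6 upper airway probe sets in 9 of 11 comparisons, and none of Scgb1a1, Scgb3a2, Cyp2f2 and Aldh1a7 in any. These probe sets correlate with each other, so their calls are not separate results. A widely spread probe set can rank high in both directions. At 100 ppb in water on AIN-76A, Bpifa1 was number 33 of 45037 as higher and number 12 as lower. In arsenite over saline it was number 12856 as higher and number 31 as lower.

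On the AIN-76A diet the 5 upper airway genes had higher means with As than in control mice, and the values overlapped in each. With 10 ppb in food, Bpifa1 read 11.77, 11.62, 11.61, 11.94 and 8.62, against 13.06, 10.71, 11.72, 3.89 and 9.09 in control mice. The food mice lay inside the range of the control mice. The difference was 1.42 (95% interval -1.01 to 3.85, adjusted p = 1.0), and that of Reg3g 0.54 (-1.93 to 3.00). Limma called 0% of all probe sets here. The rank product called 5 probe sets as higher, those of Bpifa1, Bpifb1 (both), Reg3g and Scgb3a1, where it called 0.0511% of all probe sets as higher. Without AIN-76A control replicate E the difference of Bpifa1 was -0.03, the rank product called 0 of the 10 as higher, and it called Reg3g as lower.

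In the water series on AIN-76A, Bpifa1 read 13.06, 10.71, 11.72, 3.89 and 9.09 in control mice, 13.87, 10.87, 11.79 and 10.62 at 10 ppb, and 13.17, 9.60 and 8.52 at 100 ppb. Each of the 3 groups held a mouse above 13. The difference from control was 2.10 at 10 ppb (95% interval -0.48 to 4.67, adjusted p = 0.478) and 0.74 at 100 ppb (-2.07 to 3.54, adjusted p = 1.0). Reg3g read 11.66, 8.18, 8.21 and 8.29 at 10 ppb, against 10.43, 7.22, 8.77, 3.75 and 6.10 in control mice. Its difference was 1.83 (-0.78 to 4.45). Limma called 0% of all probe sets at either dose. The rank product called Bpifa1, Reg3g and both Bpifb1 probe sets as higher at 10 ppb, against 0.0289% of all, and 0 members at 100 ppb, against 0.0244% called in either direction. Without AIN-76A control replicate E the differences of Bpifa1 were 0.64 at 10 ppb and -0.72 at 100 ppb, and the rank product called 0 members at either dose. Within batches, most of which hold 1 mouse of each group, Bpifa1 was higher with As in food in 3 of 5 (-3.10 to 7.74), at 10 ppb in water in 4 of 4 (0.82 to 6.74) and at 100 ppb in 2 of 3 (-4.54 to 5.72). The 7.74, 6.74 and 5.72 all come from batch 2, where AIN-76A control replicate E is the control mouse. The 3 AIN-76A comparisons share their control mice.

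The club cell genes differed little on AIN-76A. Cyp2f2 averaged 13.54 ± 0.07 in control mice (SD, n = 5), 13.43 ± 0.29 at 10 ppb (n = 4) and 13.51 ± 0.11 at 100 ppb in water (n = 3). Its mean was 13.61 ± 0.04 with 10 ppb in food (n = 5), against 13.54 in control mice. Scgb1a1 averaged 14.16, 14.19 and 14.18 over the same water series, and 14.17 with As in food. The largest differences of the 4 genes were -0.19 for Aldh1a7 at 10 ppb in water (95% interval -0.40 to 0.02) and 0.18 for Aldh1a7 at 100 ppb (-0.05 to 0.41). At 10 ppb in water, replicate E read lowest for Cyp2f2 (13.03), Scgb3a2 (12.95) and Aldh1a7 (10.42). In the 10 ppb water group, the mean of the thymus genes ran between 3.70 and 9.93 over mice, and that of the fat genes between 4.85 and 10.1. Their part in these values was not tested.

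On LRD the same genes had lower means with As than in control mice, again with overlap. With 10 ppb in food, Bpifa1 read 11.82, 7.57, 12.27, 10.92 and 9.72, against 12.57, 13.22, 10.59 and 11.04 in control mice. The difference was -1.40 (95% interval -3.97 to 1.18, adjusted p = 1.0). Reg3g read 8.67, 4.78, 8.94, 9.42 and 7.41, against 9.41, 10.78, 8.92 and 8.53 in control mice, a difference of -1.57 (-4.18 to 1.05). In the water series, Bpifa1 read 12.57, 13.22, 10.59 and 11.04 in control mice, 7.84, 10.95, 11.39 and 12.91 at 10 ppb, and 8.16, 13.09 and 11.63 at 100 ppb. Its difference from control was -1.09 at 10 ppb (-3.80 to 1.63) and -0.90 at 100 ppb (-3.83 to 2.04), and each of the 3 LRD values of Bpifa1 depended on 1 low mouse. Without it the difference was -0.68 in food (without replicate C), -0.11 at 10 ppb (without replicate A) and 0.50 at 100 ppb (without replicate C). Reg3g differed by -0.80, -0.24 and -0.22 without the same mice. Leaving out LRD control replicate C gave -0.63 at 10 ppb and -0.44 at 100 ppb for Bpifa1, and leaving out a high exposed mouse gave -1.80 at 10 ppb (replicate E) and -1.96 at 100 ppb (replicate D). Limma called 0% of all probe sets in each of the 3. The rank product called Bpifa1, Reg3g and both Bpifb1 probe sets as lower in food (0.091% of all), Reg3g at 10 ppb in water (0.118%) and Reg3g at 100 ppb (0.0755%). The 3 comparisons share their control mice. Heart muscle genes averaged 9.26 with As in food and 9.08 and 8.35 at 10 and 100 ppb in water, against 10.2 in LRD control mice, and fat genes 4.96, 5.30 and 5.38, against 6.05. Their part in the differences was not tested. In the 1 batch that holds LRD mice with 10 ppb in water and LRD control mice, Bpifa1 differed by 0.33 and Reg3g by 1.10, opposite in sign to the values over all batches. Bpifa1 was lower with As in food in 2 of 3 batches (-5.003 to 1.23) and at 100 ppb in water in 1 of 2 (-2.88 to 1.18).

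The difference between the diets in the As response was tested as an interaction. For Bpifa1 it was -2.82 in food (95% interval -6.36 to 0.72), -3.18 at 10 ppb in water (-6.92 to 0.56) and -1.63 at 100 ppb (-5.69 to 2.42). Without AIN-76A control replicate E these were -1.37, -1.73 and -0.18, and at 100 ppb each of 6 single mice, when left out, moved the value by over 1.5 times, to between -2.70 and -0.18. None passed (adjusted p 1.0, 0.483 and 1.0), and limma called 0% of all probe sets in each of the 3. Over the 4 groups of each diet, LRD over AIN-76A, Bpifa1 differed by 0.26 (-1.11 to 1.62), Reg3g by 0.33 (-1.06 to 1.71) and Cyp2f2 by 0.02 (-0.07 to 0.10). Limma called 0.153% of all probe sets between the diets, and 0 of the 10. Among the genes of xenobiotic metabolism, Cyp1a1, the P450 enzyme induced through the aryl hydrocarbon receptor, was higher on LRD by 5.32 (SE 0.26, adjusted p = 7.63e-20, limma), the only call of 18 measured.

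After injection, mice that had arsenite had lower means of the 5 upper airway genes. Bpifa1 read 10.88, 11.63, 11.81, 11.23 and 7.50 with both agents and 9.80, 13.22, 11.68 and 8.83 with arsenite alone. It read 10.97, 13.78, 13.53, 11.75 and 10.96 with dexamethasone alone, and 13.43, 12.11, 13.69, 11.71 and 10.82 with saline. Each injected group overlapped the saline mice. The difference from saline was -1.74 with both agents (95% interval -4.17 to 0.69, adjusted p = 0.756), -1.47 with arsenite (-4.05 to 1.10, adjusted p = 0.899) and -0.15 with dexamethasone (-2.58 to 2.27, adjusted p = 0.998). With both agents over dexamethasone alone it was -1.59 (-4.02 to 0.84, adjusted p = 1.0). Without replicate F of the mice given both agents these were -0.97 over saline and -0.81 over dexamethasone. The difference with arsenite was -0.79 without arsenite replicate F and -2.25 without arsenite replicate B.

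In the injection comparisons that hold arsenite, Bpifb1 and Reg3g had the largest differences of the 9 genes. Bpifb1 read 5.91, 10.56, 8.87 and 5.70 with arsenite, against 10.75, 9.42, 11.29, 9.31 and 8.66 with saline, a difference of -2.13 (95% interval -4.46 to 0.20, adjusted p = 0.825). Reg3g read 6.81, 8.03, 8.48, 8.28 and 4.75 with both agents, against 10.31, 8.55, 10.86, 8.75 and 8.05 with saline. Only 1 of the 5 saline values, 8.05, lay below the highest value with both agents, and the difference was -2.03 (-4.50 to 0.43, adjusted p = 0.679). Against dexamethasone alone Reg3g differed by -2.08 (-4.55 to 0.38). Within the 4 batches that hold both groups, Reg3g was lower with both agents than with saline in 4 of 4, and Bpifa1 in 2 of 4 (-6.19 to 0.10). Bpifa1 was lower with arsenite than with saline in 2 of 2 batches (-3.90 and -1.46), and with both agents than with dexamethasone in 3 of 4 (-3.47 to 0.28). With dexamethasone over saline it was higher in 2 of 3 (-2.72 to 2.71), opposite in sign to the value over all batches.

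The rank product called all 6 upper airway probe sets as lower in arsenite over saline (0.346% of all), in both agents over saline (1.38%) and in both agents over dexamethasone (0.433%). In dexamethasone over saline it called 0, against 2.3% in either direction. Limma called 0% of all probe sets in arsenite over saline and in both agents over dexamethasone, 1.26% in both agents over saline and 1.14% in dexamethasone over saline, and 0 of the 10 in each. The interaction of dexamethasone and arsenite was -0.12 for Bpifa1 (-3.66 to 3.42), with 0% of all probe sets called. The mean level of heart muscle genes in a mouse was 7.88 to 9.81 with both agents, 6.52 to 10.8 with arsenite, 8.20 to 11.9 with dexamethasone and 7.03 to 11.2 with saline. The fat genes averaged 4.84 with both agents, 4.65 with arsenite, 6.56 with dexamethasone and 6.38 with saline (SD 0.26, 0.69, 1.33 and 1.84), and their r to Bpifa1 over the 52 mice was 0.33. The ciliated cell genes averaged 6.76 to 7.31, 6.46 to 7.12, 6.91 to 7.30 and 6.51 to 7.33 in the same order. Their part in the differences was not tested.

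The club cell genes stayed close after injection. Cyp2f2 averaged 13.64 ± 0.03 with both agents and 13.64 ± 0.05 with dexamethasone, against 13.54 ± 0.16 with saline (SD, n = 5 each), a difference of 0.10 in each case (95% interval -0.05 to 0.26). Scgb1a1 averaged 14.17 with both agents, 14.16 with dexamethasone and 14.18 with arsenite, against 14.19 with saline. Scgb3a2 read 13.16, 13.46, 13.28, 13.18 and 13.15 with both agents, against 13.31, 13.70, 13.51, 13.32 and 13.44 with dexamethasone. The difference was -0.21 (-0.42 to 0.00, limma adjusted p = 1.0). Other club cell genes did pass. Of the 13 measured, Selenbp1, a selenium-binding protein, rose by 0.57 (SE 0.13, adjusted p = 0.00967) and Cyp4b1 by 0.52 (SE 0.13, adjusted p = 0.0341) with dexamethasone over saline, 2 of 13 against 1.14% of all probe sets. With both agents over saline, where 1.26% of all probe sets were called, 4 of 13 rose: Selenbp1 by 0.69, Cyp4b1 by 0.64, the P450 gene Cyp2b10 by 0.75 and the tight junction gene Cldn10 by 0.58.

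Saline injection over AIN-76A control set injected against uninjected mice of 1 diet, groups that also differ in handling. The labels give 5 weeks for the control mice and only the 8 hours after injection for the saline mice. Age and time on the diet may therefore differ as well, and cannot be told apart from the injection. Bpifa1 read 13.43, 12.11, 13.69, 11.71 and 10.82 with saline, against 13.06, 10.71, 11.72, 3.89 and 9.09 in control mice. The difference was 2.66 (95% interval 0.23 to 5.09, limma adjusted p = 0.999), and 1.21 without AIN-76A control replicate E. Within batches it was higher with saline in 3 of 4 (-0.28 to 9.81), and the 9.81 is that of batch 2, which holds replicate E. Muc5b read 8.27, 7.94, 9.14, 7.18 and 7.65 with saline, against 8.65, 6.84, 6.99, 5.18 and 6.47 in control mice, a difference of 1.21 (0.21 to 2.22, limma adjusted p = 0.999). Of the control mice only replicate A lay above the lowest saline mouse. Bpifb1 differed by 2.35 (0.15 to 4.54) and Scgb3a1 by 1.55 (-0.04 to 3.14). Limma called 0.00222% of all probe sets and 0 of the 10. The rank product called all 6 upper airway probe sets as higher, against 0.393% of all, and 5 of them without replicate E, when Scgb3a1 was not called. Scgb1a1 differed by 0.03 (-0.07 to 0.14) and Cyp2f2 by -0.01 (-0.16 to 0.15).

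**Figure D5:**
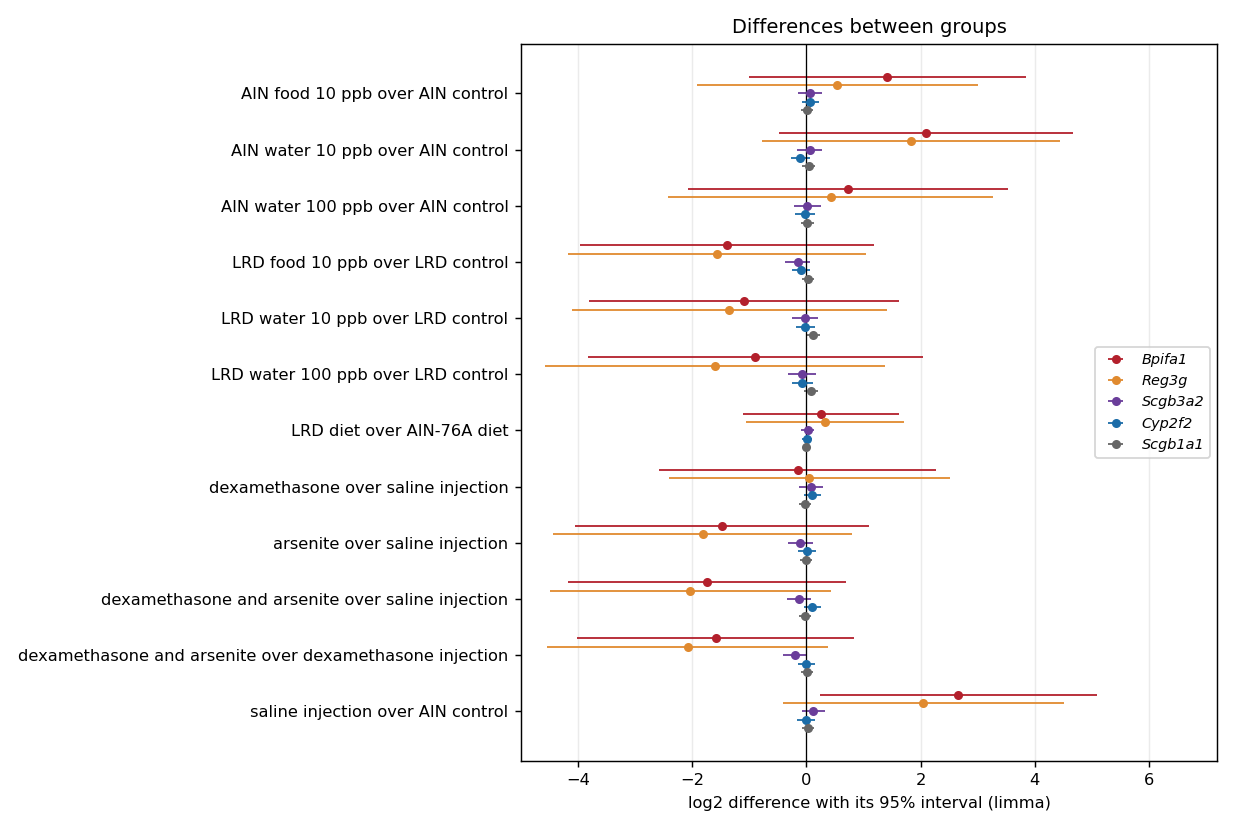
Differences between groups. The x axis is the log2 difference, first group over second, with its 95% interval from limma, and each row is a comparison; colours are Bpifa1, Reg3g, Scgb3a2, Cyp2f2 and Scgb1a1. The intervals of Bpifa1 and Reg3g span several log2 units and, apart from Bpifa1 in saline injection over AIN-76A control (0.23 to 5.09), include 0, while those of Cyp2f2 and Scgb1a1 are narrow and lie close to 0.

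The order of the group means followed the same mice. AIN-76A control was the lowest of the 12 groups for Bpifa1 (9.69 ± 3.55), Reg3g (7.25 ± 2.55), Bpifb1 (7.54 ± 2.69), Scgb3a1 (10.86 ± 2.34) and Muc5b (6.82 ± 1.24), each SD over 5 mice and each including replicate E. Saline injection was the highest for Bpifa1 (12.35 ± 1.20), Bpifb1 (9.89 ± 1.09) and Muc5b (8.04 ± 0.74), dexamethasone injection for Scgb3a1 (12.70 ± 0.76) and LRD control for Reg3g (9.41 ± 0.98). Dexamethasone injection was also highest for Scgb3a2, Cyp2f2 and Aldh1a7. Neighbours in these orders lay within their spread.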

How the data were processed

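The deposited log2 expression values were produced by the authors with robust multiarray averaging. Which arrays were normalized together is not given in the sources used here, and raw arrays were not used. Of 45101 probe sets, 64 controls were left out. Genes were named from the platform annotation where a probe set carries 1 symbol (34945 probe sets). Groups came from the sample labels and batches from the prefix of the raw file name in the labels. Each array is 1 animal, and with 3 to 5 animals in a group the means are imprecise. The 9 genes and all marker lists were chosen with earlier results of these data known.

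All 9 genes are named with all their probe sets, and the brightest stands for a gene. Genes of a list are named by smallest adjusted p, or in the text on correlations by r, which was chosen after the values were seen. The 3 nearest genes were found for each member.

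For group comparisons, limma 3.58.1 was used under R 4.3.3 (lmFit, eBayes, 1 fit of 12 group means over 52 mice, two-sided, Benjamini-Hochberg over 45037 probe sets, threshold 0.05). The rank product was computed in Python 3.11.15 (numpy 2.4.6) from 100 reorderings of the values within arrays, and probe sets with an estimated false positive share under 0.05 were called, where the study's methods give a p-value as the threshold. Both were tested on simulated data. Correlations were tested with 100000 permutations within groups, and Benjamini-Hochberg over 36 pairs or 189 relations. Tables used pandas 2.3.3, clustering scipy 1.17.1 and figures matplotlib 3.10.9. Alternatives were a filter on dim probe sets, batch or replicate letter as a block, the values within each batch that holds both groups (29 of 35 such differences set 1 mouse against 1), all 55 arrays, array weights, quantile or median centring, a fit of each comparison's own groups, the mean of probe sets, the rank product, and leaving out each mouse.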

Additional observations from a re-analysis of the deposited data

Results flagged for a closer look

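The values of 1 probe set in a group of 4 or 5 mice made 1 set, 100 in all. Of these, 11 held a mouse that stood far from the others by Dixon's test. Chance gives about 1 in 20 for separate sets. These sets share mice and the upper airway genes correlate, so the 11 are not separate results and cannot be set against that share. AIN-76A 10 ppb food replicate F was the low mouse in 4 of them, with 8.62 for Bpifa1, 8.83 for Scgb3a1, 5.80 for Muc5b and 5.41 for the second Bpifb1 probe set. Replicate F of the mice given both agents was low for Bpifa1 (7.50). LRD 10 ppb food replicate C was low for Muc5b (6.05). In AIN-76A 10 ppb water, replicate A was high for Reg3g (11.66) and the second Bpifb1 probe set (10.42), and replicate E was low for Scgb3a2 (12.95). LRD control replicate C was high for Muc5b (8.04), and saline injection replicate E was low for Aldh1a7 (10.60). AIN-76A control replicate E, the lowest of all mice in 5 genes, was not among them, since the values of its group were spread widely.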

How the results depend on the processing

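Under limma, the count of probe sets that passed was 0 of 10 in each comparison with each alternative and without each mouse. With the replicate letter as a block it was 0 as well, and the letters do not pair mice: the median r between mice of different groups was 0.01 for 206 pairs with the same letter, -0.01 for 1030 other pairs and 0.19 for 239 pairs of 1 batch. The rank product called 5, 4 and 0 probe sets on AIN-76A (food, 10 and 100 ppb in water), 4, 1 and 1 on LRD, 0 for dexamethasone, 6 in each of the other injection comparisons and 6 for saline over AIN-76A control. Without AIN-76A control replicate E these were 1 (Reg3g, as lower), 0 and 0 on AIN-76A and 5 for saline. The cause was not tested. The set with Bpifa1 held 8 genes as first cut, 5 with complete linkage, with 3 clusters, or with 3 clusters and no replicate E, and 6 with Spearman's rho.

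Bpifa1 differed between diets by 0.26, but by -0.11 with all 55 arrays. Reg3g differed by 0.05 with dexamethasone over saline, but by -0.40 with array weights. Within single batches, where 29 of 35 differences of a gene set 1 mouse against 1, the sign was often opposite to that over all mice. For Bpifa1 these were -1.29 and -3.10 in AIN-76A food (batches 3 and 4), -4.54 at 100 ppb on AIN-76A (batch 3), 1.23 in LRD food (batch 1), 0.33 at 10 ppb on LRD (batch 2), 1.18 at 100 ppb on LRD (batch 4), 2.71 and 2.07 with dexamethasone over saline (batches 1 and 5), 0.053 and 0.10 with both agents over saline (batches 1 and 5), 0.28 with both agents over dexamethasone (batch 4) and -0.28 with saline over AIN-76A control (batch 3). For Reg3g they were -1.66 and -3.73 in AIN-76A food, -4.95 at 100 ppb on AIN-76A, 0.41 in LRD food, 1.10 and 0.14 at 10 and 100 ppb on LRD, -3.09 with dexamethasone (batch 2) and -1.002 with saline over AIN-76A control, in the same batches otherwise. With saline over AIN-76A control, batch 3 also gave -0.64 for Scgb3a1, -0.54 for Muc5b and -0.92 for Bpifb1. With dexamethasone, batch 2 gave -0.28 for Scgb3a2 and -0.14 for Cyp2f2. Aldh1a7 differed by 0.037 at 10 ppb on AIN-76A in batch 5, and Scgb3a2 by 0.083 with both agents over dexamethasone in batch 4. Leaving out 1 mouse at a time turned the sign in 8 results, none of them called. Bpifa1 ran from -0.11 to 0.61 between diets, -0.034 to 2.26 in AIN-76A food, -0.72 to 1.69 at 100 ppb on AIN-76A, -1.96 to 0.50 at 100 ppb on LRD and -0.55 to 0.18 with dexamethasone. Reg3g ran from -0.34 to 1.33 in AIN-76A food, -1.25 to 1.53 at 100 ppb on AIN-76A and -0.48 to 0.53 with dexamethasone. The cause was not tested. No other sign changed under these alternatives among the differences recomputed. The 95% intervals of the upper airway genes, several log2 units wide, limit what could be called.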
